A study of Mus musculus with 15 samples.

Results

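Genes of the axis that calls neutrophils into tissue were described in mouse skin: the CXC ligands Cxcl1, Cxcl2, Cxcl3, Cxcl5, Ppbp and Pf4, and the receptors Cxcr1 and Cxcr2. These 8 were chosen by name, and all were found among the 54532 genes of the deposited table. Bulk poly-A RNA of skin was sequenced in 12 libraries, 3 in each of 4 groups: Wild type or Trpv3-knockout, and in each genotype non-treatment or 7 days of MC903. MC903 (calcipotriol) is a vitamin D analogue whose application gives mouse skin an inflammation resembling atopic dermatitis. Trpv3 encodes a warmth-sensitive calcium-permeable channel of keratinocytes. The series describes conditional knockouts, but the cells that lose the gene, the strain, the age and any vehicle on the skin left without treatment were not given in the sources used here. Nor do the labels say whether the 3 libraries of a group were separate animals. The p-values thus set differences of group means against the spread among these libraries only, and that spread may be technical.

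CXC chemokines are small secreted proteins named for a pair of cysteines with 1 residue between them. Those that carry the residues glutamate, leucine and arginine (ELR) before that motif bind CXCR2 and draw neutrophils out of the blood. Of the ligands here Cxcl1, Cxcl2, Cxcl3, Cxcl5 and Ppbp are ELR chemokines. Pf4 (platelet factor 4) lacks the ELR residues and is not a classical CXCR2 ligand. In inflamed epithelium NF-kB and signals from IL-1, IL-17 and TNF switch on the ELR genes, while Ppbp and Pf4 are best known from platelets and, for Pf4, tissue macrophages.

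All 6 ligand genes lay on the plus strand of chromosome 5 within 146.6 kb, from 90759360 to 90905938 of mm10. In order along the chromosome these were Cxcl5, Ppbp, Pf4, Cxcl3, Cxcl1 and Cxcl2. Both receptor genes lay on chromosome 1, Cxcr2 from 74153989 to 74161246 and Cxcr1 on the opposite strand from 74191785 to 74194631. Promoter windows of RefSeq (GRCm38.p6, the assembly of mm10), covering 250 bases before to 50 after a start, were matched by symbol for 7 of the 8 genes, all but Cxcl5. They were searched on both strands for an NF-kB motif of GGGA, any base and TTTCC. Cxcl1, Cxcl2 and Cxcl3 held it, each once, and the 4 other windows did not. Of all 32851 windows of that length 0.411% held a match. A looser form, GGG, any 5 bases and CC, was found in 50.8% of windows, among them those of Cxcl1, Cxcl2, Cxcl3, Cxcr1 and Cxcr2 and not those of Ppbp and Pf4. The stretches from 120 to 29 bases before the start are shown for the 3 genes with the motif, in capitals. Those of Ppbp and Pf4, the other ligands with a window, are shown as well. The windows of Cxcr1 and Cxcr2, not shown, also lacked the motif, and Cxcr2 rose after MC903 in both genotypes. Whether the motif bears on the members' values was not tested.
Cxcl1, chr5:90891125-90891216, plus strand: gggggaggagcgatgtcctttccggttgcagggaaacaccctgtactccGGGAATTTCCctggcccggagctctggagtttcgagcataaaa
Cxcl2, chr5:90903779-90903870, plus strand: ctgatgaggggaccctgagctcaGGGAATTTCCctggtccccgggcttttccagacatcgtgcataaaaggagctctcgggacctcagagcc
Cxcl3, chr5:90785981-90786072, plus strand: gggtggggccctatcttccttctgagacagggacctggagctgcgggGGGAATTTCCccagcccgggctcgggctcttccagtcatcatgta
Ppbp, chr5:90768398-90768489, plus strand: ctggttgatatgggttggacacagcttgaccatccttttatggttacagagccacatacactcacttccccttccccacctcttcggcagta
Pf4, chr5:90772315-90772406, plus strand: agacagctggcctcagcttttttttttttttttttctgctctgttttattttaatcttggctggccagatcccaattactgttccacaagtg
The matched bases were GGGAATTTCC in all 3, beginning 71 bases before the start in Cxcl1, 97 in Cxcl2 and 73 in Cxcl3. A match is a description of these letters, and binding was not measured.

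Levels are FPKM (fragments scaled by gene length and by library size), and differences are log2 differences of FPKM + 0.5 with their standard error (SE) from limma, which understate the change of low genes. The reads assigned to genes numbered 16869716 to 18485698 a library. Genes with an FPKM of at least 0.5 in at least 3 libraries were tested, 17646 in all, including 7 of the 8 members. Cxcr1 did not pass that filter, and Cxcl2, Cxcl3 and Cxcl5 passed it only through libraries given MC903, so that those 3 had to differ by treatment. Trpv3 itself read 1.13 to 2.71 in untreated wild type and 2.62 to 3.64 in untreated skin labelled knockout, and 16.1 to 19 against 4.73 to 6.82 after MC903. In untreated skin, RNA summed over the whole gene was thus no lower where the label was knockout, and the phrase skin labelled knockout is used throughout. The keratinocyte genes Krt5 and Krt14 had group means of 559 to 2054 and 846 to 11860 FPKM.

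After MC903, Cxcl1, Cxcl2, Cxcl3, Cxcl5 and Cxcr2 rose in both genotypes. Ppbp and Pf4 fell in wild type and rose in skin labelled knockout. In wild type 5 members were called higher and 2 lower (limma, adjusted p below 0.05), where 32.6% of all tested genes were called higher and 30.3% lower. In skin labelled knockout all 7 tested members were called higher, against 25% of all genes higher and 23% lower. The median log2 difference of the tested members was 2.85 and 3.4, beside 0.02 and 0 over all genes. Because 3 of them had to differ, these counts describe the members and do not set them apart.

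**Figure D1:**
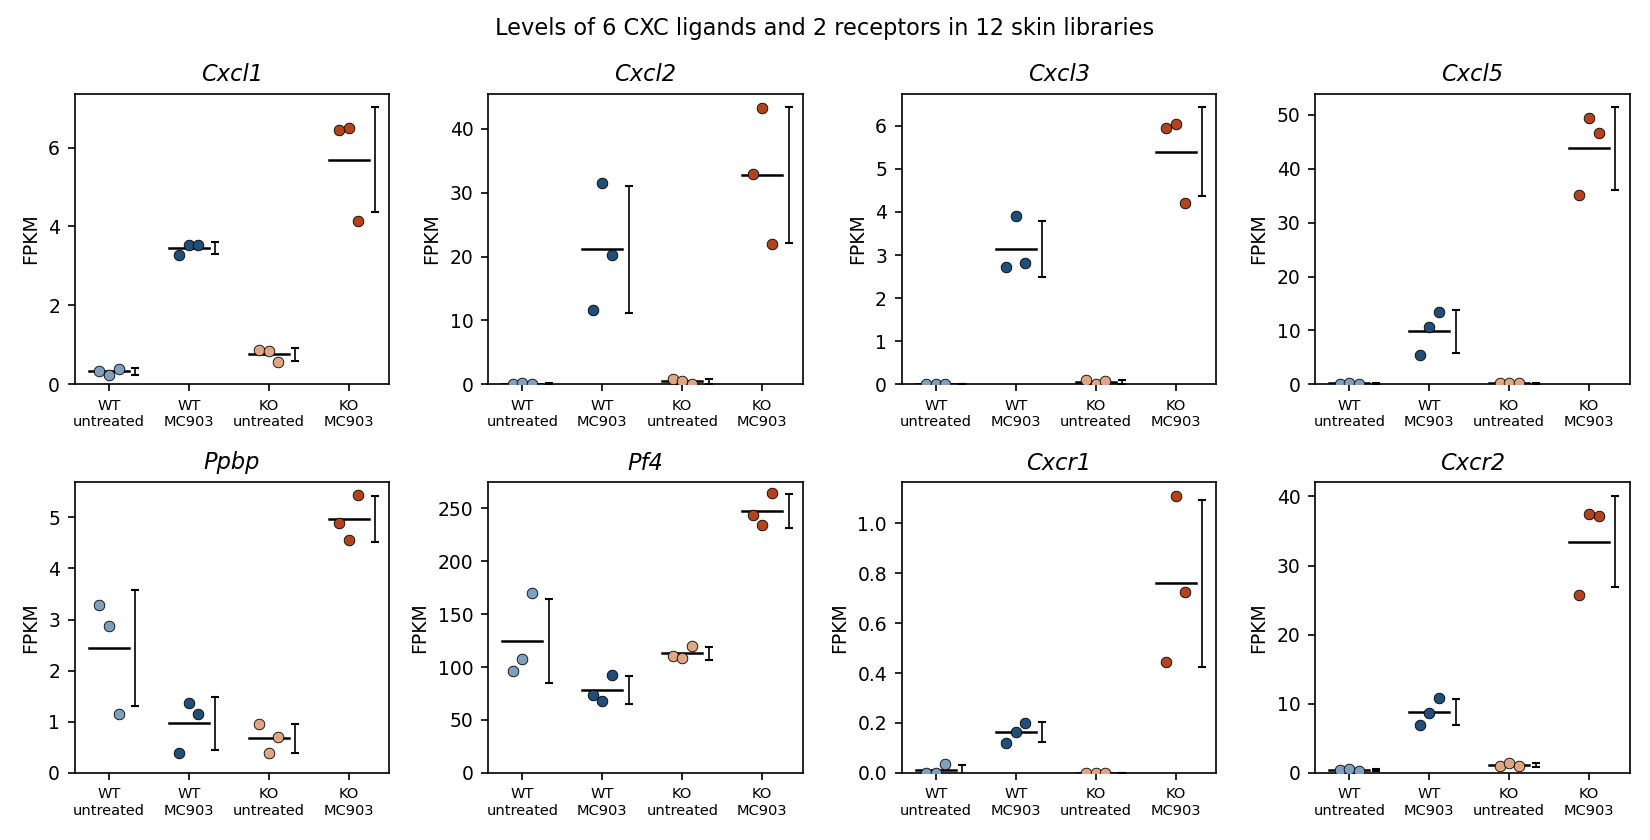
FPKM of each member (vertical axes, linear from 0, each with its own scale) in the 12 libraries, by group; points are libraries, horizontal lines group means and bars the mean ± SD of 3 libraries. Every library labelled knockout and given MC903 lies above every wild type library given MC903 for all members except Cxcl2, whose ranges of 11.6 to 31.5 and 22 to 43.3 overlap. The share of all genes without such overlap was not computed, so the separation does not set the members apart. Cxcr1 rests on only 3 to 5 reads per library in MC903 wild type. Of all tested genes 25.9% were called higher in that comparison (limma, adjusted p below 0.05).

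Cxcr2, the receptor by which neutrophils sense ELR chemokines, read 0.462, 0.521 and 0.309 FPKM in untreated wild type libraries and 6.98, 8.66 and 10.8 after MC903. In skin labelled knockout it read 1.01, 1.44 and 0.951 untreated and 25.8, 37.4 and 37.2 after MC903. The 4 groups did not overlap. MC903 raised it 20.5-fold in wild type (log2 difference 3.31 ± 0.19 SE, limma adjusted p = 1.3e-07) and 29.5-fold in skin labelled knockout (4.37 ± 0.19, limma adjusted p = 6.6e-08), as ratios of group means. Between the MC903 groups Cxcr2 was 3.79-fold higher in skin labelled knockout (1.87 ± 0.19, limma adjusted p = 2e-05).

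Cxcr1, the companion receptor, was close to the limit of these libraries. Untreated wild type libraries held 0, 0 and 1 read and the untreated knockout-labelled libraries 0 in each. After MC903 it had 3, 4 and 5 reads in wild type (0.162 ± 0.0398 FPKM, mean ± SD, n = 3) and 12, 30 and 20 in skin labelled knockout (0.761 ± 0.336). Against a floor of 3 reads per library, the rise in skin labelled knockout was at least 7.21-fold. The MC903 groups did not overlap and their means differed 4.7-fold. With no filter on low genes, limma placed Cxcr1 higher after MC903 in skin labelled knockout (1.3, limma adjusted p = 0.00021) and higher there than in MC903 wild type (0.9, limma adjusted p = 0.0017). In wild type that fit gave 0.37 (limma adjusted p = 0.095).

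Cxcl1, an early ELR chemokine of epithelium and macrophages, read 0.348, 0.238 and 0.39 in untreated wild type and 3.28, 3.54 and 3.53 after MC903. The knockout-labelled libraries held 0.873, 0.839 and 0.573 untreated and 6.44, 6.49 and 4.15 after MC903. No 2 groups overlapped. The rise was 10.6-fold in wild type (2.26 ± 0.17, limma adjusted p = 6.8e-07) and 7.48-fold in skin labelled knockout (2.28 ± 0.17, limma adjusted p = 2.3e-06). On the log scale the response of Cxcl1 to MC903 differed between genotypes by 0.017, with a 95% confidence interval of -0.5 to 0.53. This value depends on the pseudocount of 0.5. It was -0.338 with 0.1 (limma adjusted p = 0.41) and -0.476 with voom (limma adjusted p = 0.46).

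Cxcl2, the ligand also called MIP-2, was nearly absent from untreated skin, with 0, 9 and 2 reads in wild type and 31, 23 and 3 in skin labelled knockout. After MC903 it was the second highest member in wild type, at 11.6, 31.5 and 20.3 FPKM. The knockout-labelled libraries read 32.9, 43.3 and 22. As ratios of means the rise was 238-fold in wild type and 68.7-fold in skin labelled knockout. Because Cxcl2 passed the filter only through libraries given MC903, the p-values of its rise are descriptive. The log2 differences were 5.11 ± 0.38 (limma adjusted p = 7.6e-07) and 5.11 ± 0.38 (limma adjusted p = 2.7e-06), and the response differed by 0.007 between genotypes, with a 95% confidence interval of -1.18 to 1.19. That small difference depends on the pseudocount of 0.5, since it was -0.801 with 0.1 (limma adjusted p = 0.49) and -1.91 with voom (limma adjusted p = 0.45). Of the 7 tested members only Cxcl2 did not pass between the MC903 groups (0.68 ± 0.38, limma adjusted p = 0.16), which overlapped, and without MC903 wild type replicate 2 it did (1.01, limma adjusted p = 0.048).

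Cxcl3, the ELR ligand next to Pf4 on the chromosome, had no read in any untreated wild type library and 6, 0 and 5 reads in the untreated libraries labelled knockout. After MC903 it read 2.72, 3.9 and 2.81 FPKM in wild type, at least 72.3-fold above a floor of 3 reads per library. It read 5.94, 6.04 and 4.2 in skin labelled knockout. The MC903 groups did not overlap (0.69 ± 0.17, limma adjusted p = 0.0046), and the response did not pass for a difference between genotypes (0.55 ± 0.23, limma adjusted p = 0.084). That last value lay past the threshold in 4 of 22 alternatives, among them without MC903 wild type replicate 2 (0.69, limma adjusted p = 0.035) and without MC903 replicate 3 labelled knockout (0.7, limma adjusted p = 0.031). It changed sign with limma voom on the recovered reads (-1.62, limma adjusted p = 0.34).

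Cxcl5, a ligand of epithelial cells that in the mouse stands for human CXCL5 and CXCL6, showed one of the larger differences of the members between the MC903 groups, beside Ppbp. Untreated libraries held 3, 10 and 5 reads in wild type and 10, 6 and 5 in skin labelled knockout, a pair of groups that overlapped. After MC903 the wild type libraries read 5.46, 10.6 and 13.4 FPKM and those labelled knockout 35.1, 49.5 and 46.7. Cxcl5 too passed the filter only through libraries given MC903, so the p-values of its rise are descriptive. The log2 rise was 3.88 ± 0.26 (limma adjusted p = 3.8e-07) and 5.98 ± 0.26 (limma adjusted p = 6.9e-08), and the MC903 groups differed 4.47-fold (2.17 ± 0.26, limma adjusted p = 6e-05). The rise was larger in skin labelled knockout by 2.1 ± 0.37 (limma adjusted p = 0.0014), a call that ended with voom on the recovered reads (1.93, limma adjusted p = 0.18).

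Ppbp, the precursor of the platelet chemokine CXCL7, moved in opposite directions in the genotypes, as did Pf4. Untreated wild type libraries read 3.29, 2.88 and 1.16 FPKM and wild type libraries given MC903 0.386, 1.36 and 1.15, so the groups overlapped through untreated replicate 3. In skin labelled knockout it went from 0.945, 0.387 and 0.694 to 4.89, 4.55 and 5.44, a 7.34-fold rise (2.24 ± 0.34, limma adjusted p = 0.00031). In wild type it fell by 0.99 on the log2 scale (-0.99 ± 0.34, limma adjusted p = 0.024). Its call ended when untreated wild type lost replicate 1 (-0.76, limma adjusted p = 0.095) or 2 (-0.84, limma adjusted p = 0.08) and without MC903 wild type replicate 1 (-0.66, limma adjusted p = 0.1). It also ended with no filter (limma adjusted p = 0.052) and in a fit of just that pair of groups (limma adjusted p = 0.075). The difference of response, 3.23 ± 0.48 (limma adjusted p = 0.00053), passed in all 22 alternatives run for it. Few reads underlie it, 7 to 24 per library in MC903 wild type and 8 to 20 in untreated skin labelled knockout.

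Pf4, platelet factor 4, was the highest member in every group. It read 95.8, 108 and 170 FPKM in untreated wild type and 73.1, 68 and 92.8 after MC903 (-0.64 ± 0.19, limma adjusted p = 0.011), a fall that went to -0.4 (limma adjusted p = 0.019) once replicate 3 of untreated wild type was left out. When only these 2 groups were fitted, the fall did not pass (limma adjusted p = 0.055). In skin labelled knockout Pf4 read 110, 109 and 120 untreated and 244, 234 and 265 after MC903, a 2.19-fold rise (1.13 ± 0.19, limma adjusted p = 0.00057). The MC903 groups differed 3.18-fold (1.67 ± 0.19, limma adjusted p = 3.7e-05) and the response by 1.77 ± 0.26 (limma adjusted p = 0.00055).

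Between untreated genotypes 3 of the 7 tested members passed. Cxcl1 was 2.34-fold higher in skin labelled knockout (0.61 ± 0.17, limma adjusted p = 0.039) and Cxcr2 2.64-fold (0.81 ± 0.19, limma adjusted p = 0.022), and Ppbp was 3.62-fold lower (-1.27 ± 0.34, limma adjusted p = 0.035). Cxcl2 was 5.36-fold higher by its means, but its groups overlapped and it did not pass (0.67 ± 0.38, limma adjusted p = 0.28). Of the tested members 2 were thus higher and 1 lower, against 7.15% and 4.55% of all genes. Intervals of 95% for the other members were -0.17 to 1.51 for Cxcl2, -0.22 to 0.51 for Cxcl3, -0.5 to 0.65 for Cxcl5 and -0.51 to 0.31 for Pf4. All 3 calls ended without untreated replicate 1 or 2 labelled knockout (limma adjusted p of 0.054 to 0.13). Those of Cxcl1 and Ppbp also ended when replicate 1 or 2 of untreated wild type was left out (limma adjusted p of 0.073 to 0.11). That of Ppbp ended as well without untreated replicate 3 labelled knockout (0.082) or MC903 replicate 1 or 2 labelled knockout (0.051 each, limma adjusted p). That of Cxcl1 ended without any 1 of the MC903 wild type libraries (limma adjusted p of 0.052 to 0.054).

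Between the MC903 groups 6 members were higher in skin labelled knockout, against 25.9% of all genes higher and 26.1% lower. Cxcl5, Ppbp, Cxcr2 and Pf4 differed by 1.67 to 2.17 on the log2 scale and Cxcl1 and Cxcl3 by 0.62 and 0.69, while Cxcl2, at 0.68, did not pass. The difference of response to MC903 passed as higher in skin labelled knockout for 4 members (Cxcl5, Ppbp, Pf4 and Cxcr2), against 20% of all genes higher and 19.7% lower. Of these 4, Cxcr2 did not pass with a pseudocount of 0.1 (0.69, limma adjusted p = 0.11) or with voom on the recovered reads (0.58, limma adjusted p = 0.38), nor Cxcl5 with voom. The comparisons share libraries, and each is given with its own values.

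**Figure D2:**
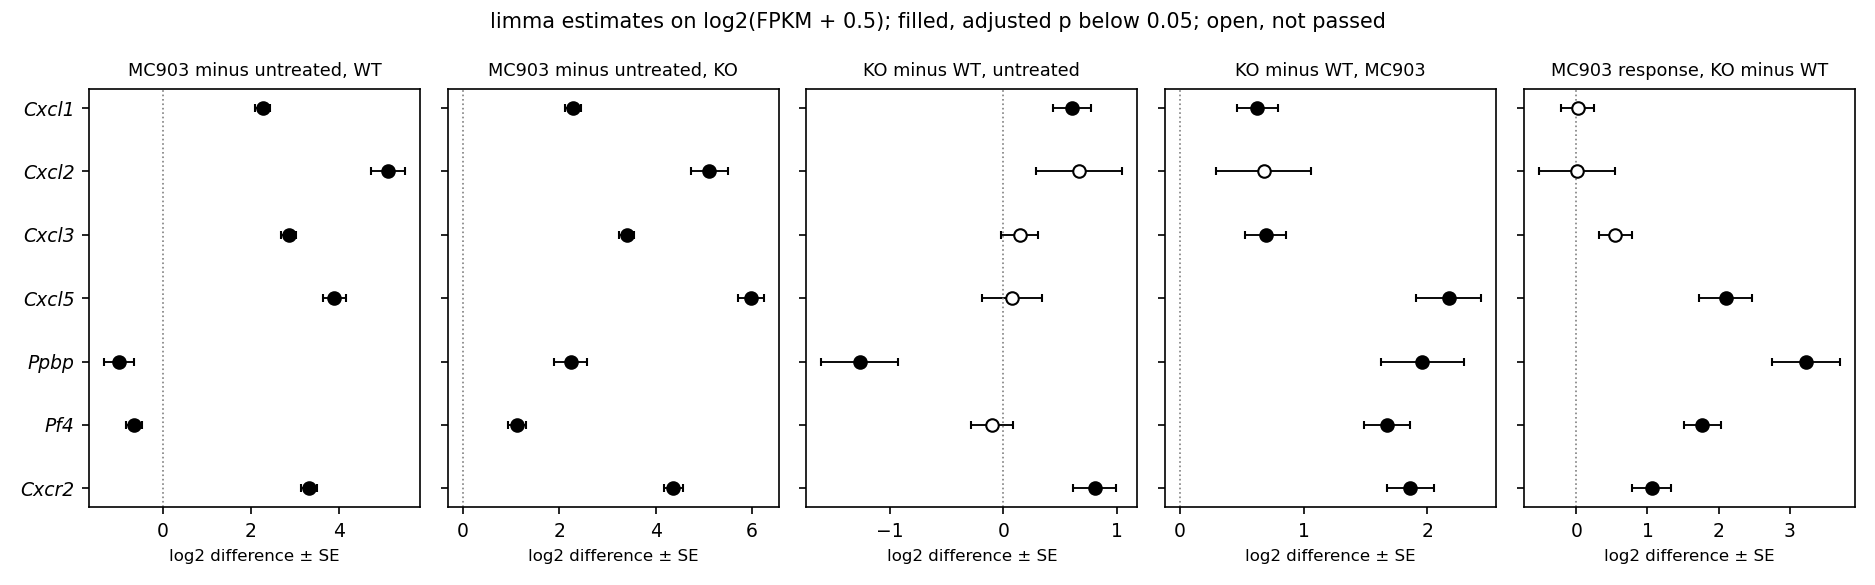
Log2 differences ± SE from limma (horizontal axes, each panel with its own range) for the 7 tested members in 5 comparisons; filled points passed at an adjusted p below 0.05 and open points did not. Ppbp and Pf4 lie left of 0 in wild type and right of 0 in skin labelled knockout after MC903.

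Scaling between libraries bears on these values, since the deposited denominators differ from total reads. With TPM, the median over all genes shifted by -0.43 for MC903 in wild type, -0.18 in skin labelled knockout, 0.27 between the MC903 groups and 0.26 for the difference of response. Of all called genes, 51.8% were higher for MC903 in wild type and 26.7% with TPM, 52.1% and 33.5% in skin labelled knockout, 49.8% and 73.7% between the MC903 groups, and 50.3% and 72.2% for the difference of response. Scaling by total reads gave 40% for MC903 in wild type, 61.9% for the difference of response and, between untreated genotypes, 49.7% in place of 61.1%. All 27 calls of members over the 5 comparisons kept direction and threshold under TPM and under scaling by total reads.

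Ratios within a library are free of that scaling. Among the 5 ELR ligands, whose summed level was 23.4 to 50.9 FPKM in wild type and 82.5 to 110 in skin labelled knockout after MC903, Cxcl2 held 53.6% ± 7.25 (SD, n = 3) in wild type and 34.9% ± 7.14 in skin labelled knockout. Cxcl5 held 25.5% ± 6.15 and 47.6% ± 8.04. Cxcl5 thus stood at 0.472, 0.335 and 0.657 of the level of Cxcl2 in the wild type libraries and at 1.07, 1.14 and 2.13 in those labelled knockout, with no overlap. The ratio of Cxcl3 to Cxcl1, in contrast, was 0.827, 1.1 and 0.797 against 0.923, 0.931 and 1.01. In untreated wild type Ppbp made up 66.6% to 88.5% of the sum, which was then 1.74 to 3.72 FPKM.

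**Figure D3:**
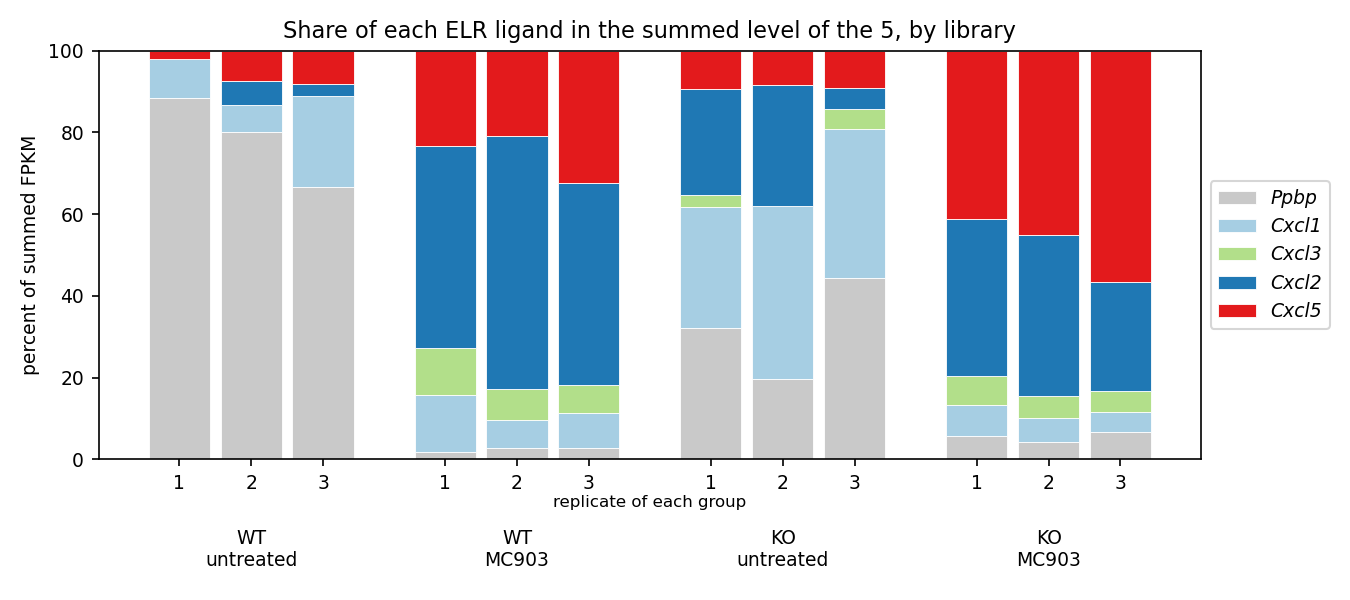
Percent of the summed FPKM of the 5 ELR ligands held by each (vertical axis) in each of the 12 libraries (bars, by group and replicate). Ppbp is the largest share in every untreated wild type library, Cxcl2 in the 3 MC903 wild type libraries (49.4% to 61.9%) and Cxcl5 in the 3 MC903 libraries labelled knockout (41.2% to 56.6%).

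The order of levels between genes depends on the gene length used. The deposited lengths of Cxcl1 (1875 bp), Cxcl2 (2068 bp) and Cxcl3 (3498 bp) equal the whole span of the gene, introns included, because retained-intron transcripts are annotated. Their principal spliced transcripts in GENCODE M21 are 953, 1109 and 1016 bases long, so per base of that transcript the 3 levels would be 1.97, 1.86 and 3.44 times as high if all reads came from it. For Cxcl5, Ppbp and Pf4 the factors are 1.18, 1 and 1.23. With those lengths Cxcl2 at 61 FPKM, and not Cxcl5 at 51.8, would be the highest ELR ligand after MC903 in skin labelled knockout, and Cxcl5 would hold 35.6% ± 7.82 there against 16.7% ± 4.71 in wild type. Ratios of group means within a gene do not change with its length. The log2 differences, their tests and the filter can change with it, because the pseudocount and the FPKM cutoff are fixed. The tests were not rerun with those lengths. As deposited, the order after MC903 was Pf4, Cxcl2, Cxcl5, Cxcr2, Cxcl1, Cxcl3, Ppbp and Cxcr1 in wild type. Neighbours whose ranges overlapped there were Cxcl2 with Cxcl5, Cxcl5 with Cxcr2 and Cxcl1 with Cxcl3. In skin labelled knockout it was Pf4, Cxcl5, Cxcr2, Cxcl2, Cxcl1, Cxcl3, Ppbp and Cxcr1, where Cxcl5, Cxcr2 and Cxcl2 overlapped, as did Cxcl1, Cxcl3 and Ppbp. How reads shared between these related genes were assigned was not given in the sources used here.

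In RNA of whole skin, fewer cells of a type and less RNA per cell cannot be told apart, and marker genes moved with the members. Of 18 neutrophil markers 14 were tested. Of these 10 rose in wild type and 12 in skin labelled knockout after MC903 (medians 2.08 and 3.12, against 0.02 and 0 over all genes), and 10 were higher in skin labelled knockout between the MC903 groups (median 1.3). The shares of all tested genes were 32.6%, 25% and 25.9%. Csf3r, the G-CSF receptor of neutrophils, went from 0.707 ± 0.0943 to 6.83 ± 1.81 in wild type and from 1.62 ± 0.5 to 29.4 ± 6.07 in skin labelled knockout (FPKM, mean ± SD, n = 3, as for the levels that follow). The neutrophil protein genes Retnlg and Stfa2l1 and the formyl peptide receptor gene Fpr2 also rose in both. Between the MC903 groups Retnlg and Fpr2 were higher in skin labelled knockout, while Stfa2l1 did not pass (0.255 ± 0.325, limma adjusted p = 0.54). The responses of Retnlg and Stfa2l1 did not pass for a difference between genotypes (-0.071 and 0.145, limma adjusted p = 0.92 and 0.82). Of the 14 tested markers 6 passed for a larger response. The summed neutrophil list ranged from 113 to 174 FPKM in MC903 wild type and from 202 to 282 in MC903 skin labelled knockout, and Ly6g was listed at 0 in all untreated libraries. Much of that sum came from Il1r2 and Hcar2 (39.2 and 34.3 FPKM in MC903 wild type), which did not pass between the MC903 groups (0.27 and -0.10, limma adjusted p = 0.11 and 0.77). Cxcr2 stood at 1.07 to 1.47 times the level of Csf3r in MC903 wild type and at 1.11 to 1.17 times in MC903 skin labelled knockout. In untreated libraries that ratio was lower, at 0.41 to 0.771 in wild type and 0.592 to 0.899 in skin labelled knockout. Cxcr2 thus rose more than Csf3r after MC903 in both genotypes. Between the MC903 groups Csf3r was higher along with Cxcr2 (2.04 ± 0.23, limma adjusted p = 3.3e-05). The part of cell number in the difference of Cxcr2 was not tested.

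Markers bearing on Pf4 and Ppbp differed from each other. Of 12 platelet and megakaryocyte genes 8 did not pass the filter, with the highest group mean at 0.311 FPKM (Gp9), and Gp6 and Tubb1 were listed at 0 in all 3 MC903 wild type libraries. The summed list was 9.99 to 11.1 in MC903 wild type and 23.4 to 31.6 in MC903 skin labelled knockout, carried mostly by Itga2b, P2ry12 and Itgb3, which other cells also express. Of the 4 tested genes these 3 were higher in skin labelled knockout between the MC903 groups. The remaining tested gene, Gp1ba, did not pass there (0.165 ± 0.198, limma adjusted p = 0.51). It fell in wild type after MC903 (-0.535 ± 0.198, limma adjusted p = 0.034). All 14 resident macrophage genes were tested, and 11 were higher in skin labelled knockout after MC903 (median 1.23), among them the mannose receptor Mrc1 (150 ± 27 against 30.1 ± 4.82 FPKM) and the macrophage growth factor receptor Csf1r (71.9 ± 11.7 against 21 ± 0.79). In wild type 5 of these rose after MC903 and 2 fell, Csf1r and F13a1. Of all tested genes 25.9% were higher between the MC903 groups, and in wild type 32.6% rose and 30.3% fell. Pf4 stood at 2.35 to 2.82 times Mrc1 in MC903 wild type and at 1.45 to 2.05 times in MC903 skin labelled knockout. In untreated libraries that ratio was higher, at 4.47 to 8.58 in wild type and 3.36 to 3.43 in skin labelled knockout. All 5 red blood cell genes, such as Hba-a1 and Alas2, fell in wild type (median -1.51) and were higher in skin labelled knockout between the MC903 groups (1.78), with summed levels of 235 to 571 against 700 to 1189 FPKM. The part of platelets, macrophages or blood left in the tissue in the course of Pf4 and Ppbp was not tested.

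**Figure D4:**
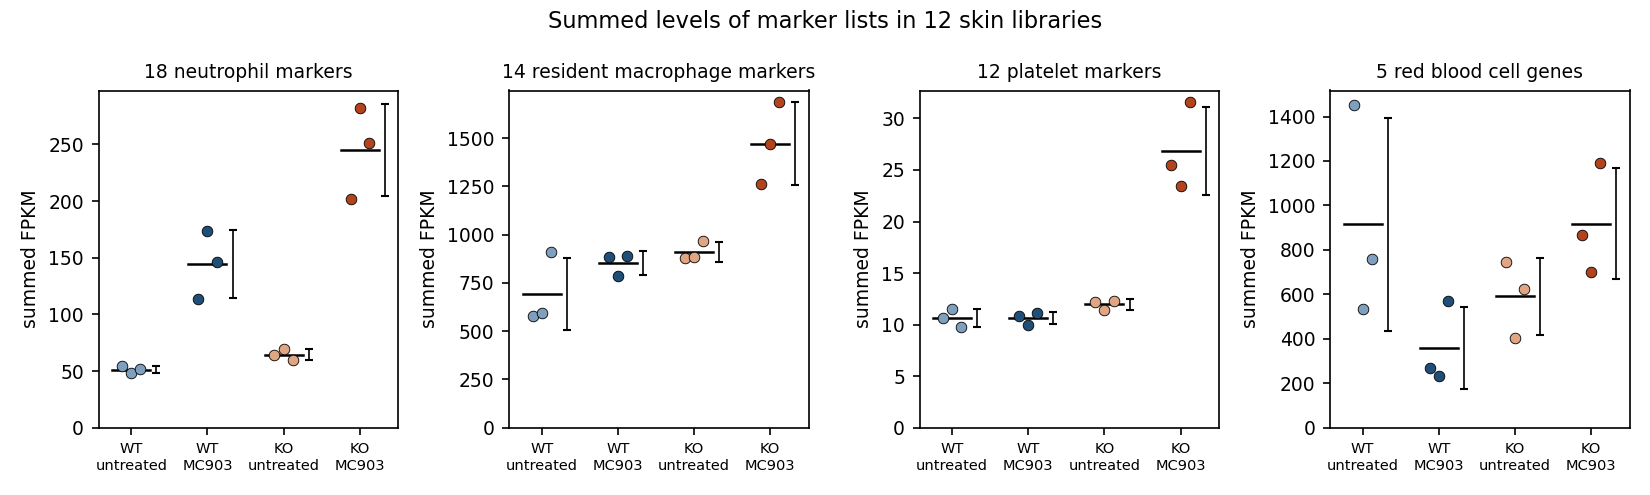
Summed FPKM of 4 marker lists (vertical axes, linear from 0) in the 12 libraries by group; points are libraries, lines group means and bars the mean ± SD of 3 libraries. The 3 MC903 libraries labelled knockout are the highest for neutrophil (202 to 282), macrophage (1260 to 1687) and platelet (23.4 to 31.6) lists, while the red blood cell list overlaps with untreated wild type.

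Lists of other skin cells also differed between the MC903 groups. Of 10 keratinocyte genes 9 were lower in skin labelled knockout (median -1.16), such as Krt14 at 3427 ± 596 against 11860 ± 2106 FPKM. Of 8 fibroblast genes 7, of 7 endothelial genes 6 and of 8 mast cell genes 6 were higher there, with the fibroblast gene Dcn at 487 ± 35.4 against 177 ± 15.7 and the mast cell receptor Kit at 5.41 ± 0.353 against 1.5 ± 0.216. The endothelial gene Egfl7 was lower. Of all tested genes 25.9% were higher and 26.1% lower in this comparison. The part of these cells in the members' values was not tested.

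Genes upstream of the ligands were read from fixed lists. Of 15 cytokines that act on or with this axis 12 were tested, and 9 rose in wild type after MC903 and 7 in skin labelled knockout, where Il1f6 fell. Medians were 2.07 and 1.54, and 32.6% and 25% of all tested genes rose. Il1b, an inducer of ELR chemokines, went from 0.426 ± 0.0959 to 37.7 ± 21.8 FPKM in wild type and from 2.09 ± 1.27 to 96.6 ± 19.5 in skin labelled knockout, and was higher in the latter after MC903 (1.53 ± 0.46, limma adjusted p = 0.015). Il6 followed the same order, at 2.2 ± 0.919 against 6.02 ± 0.0891 after MC903 (1.32 ± 0.2, limma adjusted p = 0.00026). The response of Il1b did not pass for a difference between genotypes (0.17 ± 0.64, limma adjusted p = 0.85). That of Il6 was larger in skin labelled knockout (1.27 ± 0.28, limma adjusted p = 0.005). Osm and the epithelial alarmin Tslp also rose in both genotypes. The IL-36 genes Il1f6 and Il1f9 were lower in skin labelled knockout after MC903, while Il17a and Tnf did not pass in any comparison. Of 12 genes of NF-kB and of the decay of inflammatory RNA 7 rose in wild type and 9 in skin labelled knockout. Their medians were 0.55 and 0.48, beside the same shares of all tested genes. Zc3h12a, a nuclease that degrades inflammatory transcripts, rose from 5.46 ± 0.724 to 33.6 ± 5.17 in wild type and from 15.3 ± 4.62 to 22.4 ± 3.69 in skin labelled knockout, a smaller response (-1.94 ± 0.29, limma adjusted p = 0.00056). Zfp36, which also promotes decay, had a smaller response there as well (-0.78 ± 0.15, limma adjusted p = 0.002). Bcl3 rose in both. Nfkbie had a larger response in skin labelled knockout (1.27 ± 0.22, limma adjusted p = 0.0011).

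Genes that let neutrophils leave the blood were read from a list of 10. After MC903 all 10 were called higher in skin labelled knockout (median 1.68) and 6 in wild type (0.71). Between the MC903 groups all 10 were higher in skin labelled knockout (1.48), and 8 passed for a larger response. The shares of all tested genes were 25%, 32.6%, 25.9% and 20% in that order. P-selectin (Selp), which captures leukocytes on endothelium, read 1.19 ± 0.0592 and 1.33 ± 0.0393 in wild type before and after MC903, and 1.74 ± 0.245 and 9.2 ± 1.16 in skin labelled knockout. The integrin chains Itgam and Itgb2 were also higher there after MC903.

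Other CXC genes did not move as 1 group. Of 15 listed 11 were tested, and 5 rose and 2 fell in wild type after MC903, while 7 rose in skin labelled knockout. Of all tested genes 32.6% rose and 30.3% fell in wild type, and 25% rose in skin labelled knockout. Cxcl12, the ligand of CXCR4, went from 29.7 ± 0.798 to 19 ± 0.867 FPKM in wild type and from 24.2 ± 0.317 to 41.5 ± 9.02 in skin labelled knockout (difference of response 1.38 ± 0.17, limma adjusted p = 0.00021), so that it fell in the former and rose in the latter as Pf4 did. Its receptor gene Cxcr4 read 6.14 ± 0.506 and 32.2 ± 7.43 after MC903 (2.28 ± 0.19, limma adjusted p = 6.5e-06). Cxcr3, which binds the interferon-induced ligands, was higher in skin labelled knockout too, and Cxcl16 rose in both genotypes. The 3 genes of this list that were lower in MC903 skin labelled knockout were Cxcl9, Cxcl10 and Cxcl13. Cxcl10, a ligand of CXCR3 induced by interferon, read 18.3 ± 12.9 in MC903 wild type and 4.49 ± 3.73 in MC903 skin labelled knockout (-1.75 ± 0.65, limma adjusted p = 0.042).

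Between the ends of the chromosome 5 cluster the table lists 5 further genes, and no test was made of them because all lay under the filter. Cxcl15, an ELR chemokine gene between Cxcl3 and Cxcl1, had 2 reads in the 12 libraries. Within 250 kb on either side 6 genes were tested. Epgn, an EGF receptor ligand starting 121.5 kb beyond Cxcl2, rose from 0.399 to 37.1 FPKM in wild type (5.39 ± 0.28, limma adjusted p = 7.6e-08) and from 0.866 to 78.1 in skin labelled knockout (5.94 ± 0.28, limma adjusted p = 1.1e-07). Areg, another EGF receptor ligand, rose by 5.34 and 5.21 on the log2 scale (limma adjusted p = 4.3e-07 and 1.8e-06), and the antisense gene Gm19610 by 2.39 and 1.63 (limma adjusted p = 1.7e-05 and 0.00057). Ereg fell in skin labelled knockout (-1.23 ± 0.38, limma adjusted p = 0.02) and did not pass in wild type. Gm19610 and Ereg overlap on opposite strands, and without strand their shared reads cannot be told apart. The flanking Mthfd2l fell in wild type (-0.39 ± 0.11, limma adjusted p = 0.0091), and Rassf6 did not pass for MC903 in either genotype.

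Likeness of pattern was measured over the 12 libraries as the root-mean-square difference of log2 values after each gene's own mean was removed, among 13445 genes. The nearest genes were Slc7a11 and Pi15 for Cxcl1 (0.212 and 0.246), Epgn and Il1b for Cxcl2 (0.436 and 0.46) and Osm and Fgf23 for Cxcl3 (0.236 and 0.273). For Cxcl5 they were the basophil protease gene Mcpt8 and S100g (0.464 and 0.504). Cxcr2 was nearest to Csf3r and Ccr1 (0.366 and 0.368). Ppbp was nearest to Ms4a14 and Dmxl2 (0.482 and 0.513), and Pf4 to the lectin gene Cd209f and Ptgir (0.214 and 0.226). No member was among the 2 nearest genes of another. These distances describe libraries that fall into 4 groups, and genes with small changes lie close to many others.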

How the data were processed

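Skin libraries of 4 groups of 3 were analysed, and the 3 dorsal root ganglion samples of the series were not. The authors deposited FPKM per gene. The build mm10 and the counting tool featureCounts are named per the submitters' processing notes; aligner, annotation release, strand setting and FPKM tool were not given in the sources used here. Multiplied by gene length, the FPKM values gave whole reads for 100% of values within 0.01 of an integer.

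Linear models of 4 group means were fitted with limma 3.58.1 (R 4.3.3) to log2(FPKM + 0.5) of all 12 libraries, with 8 residual degrees of freedom, eBayes with a mean trend, two-sided tests and Benjamini-Hochberg adjustment over 17646 genes within each of 5 comparisons. The threshold was an adjusted p of 0.05. Group mean folds are ratios of deposited FPKM, and a group without reads was set to 3 reads per library. Intervals of differences are 95% moderated intervals. The procedure was tested on simulated data.

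Members and lists were chosen with earlier results of these data known. All members were named, and of each list up to 4 genes by lowest adjusted p over the comparisons and 2 nearest genes per member. Further named genes were chosen after their values were seen: Gp9, Gp6, Tubb1, Ly6g, Egfl7, Il1f6, Il1f9, Il17a, Tnf, Cxcl9, Cxcl10, Cxcl13, Cxcl15, Il1r2, Hcar2, Areg, Ereg, Gm19610, Mthfd2l and Rassf6. Alternatives were other pseudocounts, filters and scalings, robust moderation, library weights, voom on recovered reads, a replicate block, fits of only 2 groups and leaving out each library. Principal transcript lengths (GENCODE M21) were an alternative chosen after seeing the data. Python 3.11.15 was used for tables and figures.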

Additional observations from a re-analysis of the deposited data

Results flagged for a closer look

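The difference of the response to MC903 between genotypes was tested directly by the limma contrast of both responses. Of all tested genes 20% were called higher and 19.7% lower by it. Among the members 4 were called. Each response was larger, or of opposite sign, in skin labelled knockout: by 3.23 on the log2 scale for Ppbp, 2.1 for Cxcl5, 1.77 for Pf4 and 1.06 for Cxcr2. Of these, Ppbp and Pf4 kept the call in every alternative run for it. Cxcl5 lost it with voom on the recovered reads (1.93, limma adjusted p = 0.18), and Cxcr2 with voom (0.58, limma adjusted p = 0.38) and with a pseudocount of 0.1 (0.69, limma adjusted p = 0.11).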

How the results depend on the processing

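The 27 calls of members kept their direction in all 617 alternative values and the call in 582. The number of members called between untreated genotypes, 3 in limma on all groups, was 1 with a pseudocount of 1, with no filter and with voom, and 0 when only these groups were fitted, where 3 had an unadjusted p below 0.05 as in the limma fit of all groups. Leaving out 1 library gave 0 to 3. There 2064 genes passed, against 613 when only these groups were fitted, 6548 with library weights and 752 to 3562 without 1 library: 1149 and 3562 without wild type replicates 2 and 3, and 831, 752 and 1176 without replicates 1, 2 and 3 labelled knockout. For the difference of response 4 members were called, and 2 with voom. Of 181 alternative values of members that were not called 22 changed sign. For that difference Cxcl1 went to -0.34 with a pseudocount of 0.1 and -0.48 with voom, and Cxcl2 to -0.801 with a pseudocount of 0.1, -0.27 with TPM, -0.16 with library weights and -1.91 with voom, and Cxcl3 to -1.62 with voom. Leaving out 1 library gave -0.096 to 0.21 for Cxcl1 and -0.36 to 0.35 for Cxcl2. Between untreated genotypes Pf4 went to 0.18 with library weights and, without 1 library, ranged from -0.27 to 0.14, and Cxcl5 from -0.014 to 0.19. The cause was not tested. With replicate number as a block the call of Ppbp between untreated genotypes ended (-1.27, limma adjusted p = 0.055) and no other member's did. Whether same-numbered libraries belong together is not said by the labels. Their deviations from group means correlated at -0.13 to 0.17 over 18 pairs, and those of different-numbered libraries at -0.212 to 0.167. With 3 libraries a group these correlations cannot decide it. Depth limits Cxcr1 and the untreated levels of Cxcl2, Cxcl3 and Cxcl5, which rest on at most 31 reads per library. It also limits Ppbp, with 7 to 24 reads per library in MC903 wild type and 8 to 20 in untreated skin labelled knockout. In untreated wild type Cxcl1 had 9 to 14 reads per library and Cxcr2 18 to 32.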
